A study of Rattus norvegicus with 10 samples.

Results

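A set of 9 genes that mark retinal astrocytes and the glial channels for water and potassium was followed in the retina of newborn rats: Pdgfa, Pdgfra, Pax2, Gfap, Vim, S100b, Aqp4, Kcnj10 and Aldh1l1. They were taken by name, each through the probe set (the array probes read together as 1 value) that carried its symbol alone, and the brightest one would have been used where a gene had several. Of the 9 genes, 8 had such a probe set, 1 each, among 14324 singly named genes on the array. Aldh1l1, a folate enzyme used as a marker of astrocytes, had none and was not analysed here.

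The samples were whole retinas of rats at postnatal day 3 from a study of early oxygen-induced retinopathy, in which high oxygen stops retinal vessels from growing. Its design text calls Sprague Dawley (SD) rats susceptible and Fischer 344 (F344) rats resistant. The pups in cyclic hyperoxia went into the chamber within 12 h of birth and had 80% and 21% oxygen in turn, 24 h each. Controls of the same age stayed in room air. The groups were SD in cyclic hyperoxia (2 pools), F344 in cyclic hyperoxia (3 pools), SD in room air (3 pools) and F344 in room air (2 pools). RNA of 3 rats from 2 litters was pooled for each of the 10 arrays, so a pool and not a rat is the replicate, and pooling hides the spread between rats.

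Retinal astrocytes are not born in the retina. They enter from the optic nerve as Pax2-positive precursors, spread across the inner surface under the pull of PDGF-A from ganglion cells, which they sense with the receptor Pdgfra, and lay the fibronectin-rich network that growing vessels follow. Mueller cells, the glia born in the retina, later carry most of its potassium channel Kir4.1 and its water channel aquaporin-4.

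The values were log2 expression values given to 1 decimal, so a difference of 1 is a doubling and the smallest step is 0.1. The number of arrays limits the precision. Most of the genes were dim: 5 of the 8 had a mean over the 10 arrays below the median of all probe sets, 5.96. Gfap averaged 4.81, brighter than 24.1% of the probe sets, and S100b 4.93, brighter than 28.2%. Aqp4 averaged 5.22 (36.9% of probe sets below it), Pax2 5.24 (37.5%) and Pdgfa 5.86 (48.6%). Pdgfra at 6.16 and Kcnj10 at 6.32 lay a little above the median, with 52.6% and 54.4% of probe sets below them. Vim, with 11.04, was brighter than 98.2%. Probes differ in how well they bind, so these values limit what each gene can show and do not rank the genes by RNA.

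Markers of the retina itself were read well above the median of all probe sets. The mean over 14 measured genes of retinal progenitors and Mueller glia lay between 9.68 and 10.06 in every pool, and that over 13 photoreceptor genes between 8.29 and 9.1. Of the 8 genes listed as astrocyte markers, 7 were measured, and the only ones outside the member set were Gja1 and Cd44. The pools numbered 3 stood apart from the rest: on the first principal component of all probe sets (34.1% of the variance), pool 3 of F344 hyperoxia lay at 30.1 and that of SD room air at 36.4, against -13.4 to -1.77 for the other 8 arrays. An extra array in each of those groups was added after a first look at 8 arrays, per the design text, and the pools numbered 3 were taken to be these.

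The promoter sequences of Pdgfra, S100b and Kcnj10 are given because these are the genes whose values set F344 in room air apart from every other pool. Each line is the 250 bases before the gene's start in RefSeq on the build GRCr8, 5′ to 3′ on the gene's own strand. Capitals mark matches to short motifs: TTGGC, the core bound by nuclear factor I, a factor of glial genes, the TATA box core TATAA, and the cores ACGTG and GCGTG of hypoxia-inducible factor sites.
Pdgfra, chr14:33408517-33408766, minus strand: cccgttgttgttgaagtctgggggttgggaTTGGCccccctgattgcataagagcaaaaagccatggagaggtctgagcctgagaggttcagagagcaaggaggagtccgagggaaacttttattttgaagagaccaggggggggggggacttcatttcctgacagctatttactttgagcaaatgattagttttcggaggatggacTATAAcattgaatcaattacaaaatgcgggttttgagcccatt
S100b, chr20:12381082-12381331, minus strand: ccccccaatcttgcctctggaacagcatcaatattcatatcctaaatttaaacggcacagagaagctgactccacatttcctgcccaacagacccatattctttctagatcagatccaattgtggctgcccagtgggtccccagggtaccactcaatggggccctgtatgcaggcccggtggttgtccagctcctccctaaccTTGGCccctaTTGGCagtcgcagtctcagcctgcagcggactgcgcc
Kcnj10, chr13:87334260-87334509, plus strand: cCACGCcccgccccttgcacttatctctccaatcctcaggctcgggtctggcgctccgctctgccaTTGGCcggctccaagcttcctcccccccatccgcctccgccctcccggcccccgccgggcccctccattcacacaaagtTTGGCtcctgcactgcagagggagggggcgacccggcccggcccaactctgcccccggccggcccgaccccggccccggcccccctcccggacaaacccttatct
The 3 sequences differ in base content, with 47.2% G and C in Pdgfra, 54.8% in S100b and 72.4% in Kcnj10. TTGGC or its reverse complement lies 220 bases before the start in Pdgfra, 47 and 37 before it in S100b, and 184 and 105 before it in Kcnj10. That string occurs on either strand in 40.3% of all 33465 RefSeq promoters of this length, so its presence is common. TATAA was found in Pdgfra alone of these 3, 43 bases before the start, and occurs in 24% of promoters. Kcnj10 holds the reverse complement of GCGTG 249 bases before the start, a core found in 25.9% of promoters, while ACGTG (16.6%) and the STAT motif TTCNNNGAA (7.7%) matched in none of the 3. No match says only that these letters are not in this window.

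No member passed the test for oxygen. None of the 8 passed an adjusted p of 0.05 in limma for cyclic hyperoxia against room air in SD, where 0.0439% of all 27342 probe sets did, and none had an unadjusted p under 0.05 there (5.95% of probe sets). In F344 none passed either (0.00366% of probe sets did), and 2 genes, Pdgfra and Kcnj10, had an unadjusted p under 0.05 (4.83% of probe sets). In SD the median of the 8 fitted differences was -0.12 and all were below 0, as were 6594 of all 14324 genes. Those of Gfap, Vim and Aqp4 in SD turned or reached 0 in at least 1 alternative fit. In F344 the median of the 8 was -0.04, with 5 below 0 and 2 above, where 6905 of all genes lay below 0. The median over all 14324 genes was 0 in each strain. Fewer cells of a type and less RNA per cell cannot be told apart in whole retina. In SD the same arrays did register an oxygen response: Igfbp2, which binds insulin-like growth factors and was named with earlier results known, averaged 6.65 in SD hyperoxia and 8.5 in SD room air, and fell by 1.85 on the log2 scale (SE 0.13, limma adjusted p = 0.000123). In F344 it averaged 7.33 in hyperoxia and 8.2 in room air, a difference of -0.87 that did not pass (SE 0.13, limma adjusted p = 0.233). Its 95% interval in F344, -1.14 to -0.59, was below 0. Averaged over both strains Igfbp2 differed by -1.36 (SE 0.09, limma adjusted p = 7.96e-05).

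**Figure D1:**
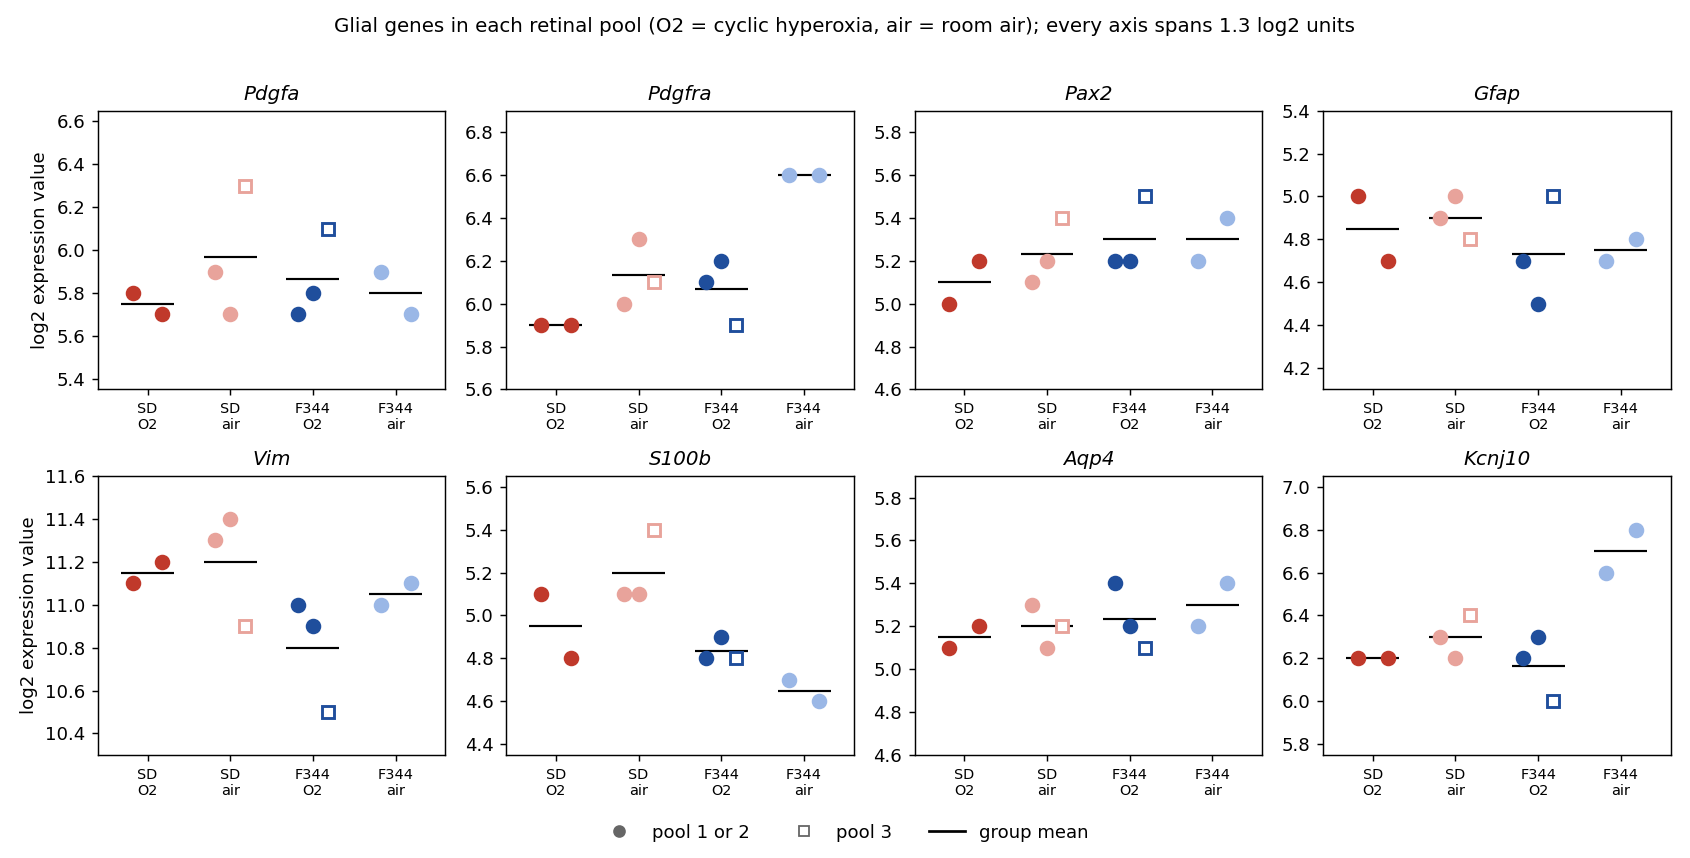
The log2 expression value (vertical axis) of the 8 measured genes in each of the 10 retinal pools, by strain and exposure; dots are pools 1 and 2, open squares pool 3, and lines group means. The F344 room-air pools stand above all others in Pdgfra and Kcnj10 and below all others in S100b.

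Pdgfra, the receptor through which astrocytes sense PDGF-A, had the widest spread of the set over the 10 arrays (standard deviation 0.267). It stood at 5.9 and 5.9 in SD hyperoxia, against 6.0, 6.3 and 6.1 in SD room air. The F344 hyperoxia pools had 6.1, 6.2 and 5.9, against 6.6 and 6.6 in F344 room air. Hyperoxia pools were below room-air pools without overlap in both strains, in SD by only the smallest step (5.9 against 6.0). The 2 F344 room-air pools were the highest of all 10. The log2 difference was -0.23 in SD (SE 0.12, 95% interval -0.50 to 0.03) and -0.53 in F344 (SE 0.12, interval -0.80 to -0.27), equal to 1.18-fold and 1.45-fold lower. Neither passed limma's test over all probe sets, with adjusted p = 0.815 in SD and 0.921 in F344, where the unadjusted p was 0.000878. Without both pools numbered 3 the differences were -0.25 in SD and -0.45 in F344. Averaged over both strains the difference was -0.38 (SE 0.09, unadjusted p = 0.000773, limma adjusted p = 0.399). The effects in the 2 strains differed by 0.30 (SD minus F344, SE 0.17, interval -0.07 to 0.68, adjusted p = 0.665).

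In SD, Pdgfra was the only one of the 8 genes whose hyperoxia and room-air pools did not overlap, a state shared by 15.3% of all probe sets. In F344, 3 genes did not overlap, Pdgfra and Kcnj10 lower in hyperoxia and S100b higher, against 12.3% of all probe sets. Groups of 2 and 3 pools separate easily, so these counts describe the pools.

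Its ligand Pdgfa, known in rodents to come from ganglion cells, showed no such order. The SD hyperoxia pools had 5.8 and 5.7, against 5.9, 5.7 and 6.3 in SD room air. In F344 the hyperoxia pools had 5.7, 5.8 and 6.1, against 5.9 and 5.7 in room air. The groups overlapped in both strains, and the highest value of each 3-pool group was that of pool 3. The log2 difference was -0.22 in SD (SE 0.17, interval -0.59 to 0.15, adjusted p = 0.829) and 0.07 in F344 (SE 0.17, interval -0.30 to 0.44, adjusted p = 0.969). Without both pools numbered 3, both were -0.05.

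The 6 PDGF ligands and receptors were all measured, and none passed limma's test for hyperoxia in either strain, with medians of -0.23 in SD and 0.03 in F344, or -0.10 and -0.05 without both pools numbered 3. Pdgfrb, the PDGF receptor of pericytes, averaged 5.45 in SD hyperoxia and 5.7 in SD room air, a log2 difference of -0.25 (SE 0.12, adjusted p = 0.815), and differed by -0.28 in F344 (SE 0.12, adjusted p = 0.921). Pdgfb, the endothelial ligand that recruits pericytes, differed by -0.25 in SD (SE 0.13, adjusted p = 0.815) and by -0.15 without SD room air pool 3. In F344 Pdgfb differed by 0, or by -0.05 without both pools numbered 3. Pdgfd, another ligand of Pdgfrb, had the opposite sign to that receptor. It had 7.6, 7.7 and 7.6 in F344 hyperoxia, against 7.4 and 7.3 in F344 room air, a log2 difference of 0.28 (SE 0.11, adjusted p = 0.921).

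Pax2, the transcription factor of astrocyte precursors arriving from the optic nerve, overlapped between all groups. It had 5.0 and 5.2 in SD hyperoxia, against 5.1, 5.2 and 5.4 in SD room air. The F344 hyperoxia pools had 5.2, 5.2 and 5.5, against 5.2 and 5.4 in F344 room air. Pool 3 was again the highest of both groups that have one. The log2 difference was -0.13 in SD (SE 0.14, interval -0.43 to 0.16) and 0 in F344 (SE 0.14, interval -0.30 to 0.30), with adjusted p = 0.851 and 1. They were -0.05 and -0.10 without both pools numbered 3.

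Among the 20 measured of 23 listed transcription factors of astrocyte precursors and glia, none passed limma's test for hyperoxia, and the medians were 0 in SD and 0.08 in F344. The 4 with the smallest p in SD were the inhibitors of differentiation Id2 (-0.27), Id3 (-0.27) and Id4 (-0.23), and Hes1 (-0.20), a Notch effector that keeps progenitors undifferentiated, each with adjusted p = 0.815. In F344 those with the smallest p were Hey1 (0.18), Sox8 (0.20), Stat3 (-0.15) and Sox2 (0.15), each with adjusted p = 0.921. Hey1 differed by 0.10 without F344 hyperoxia pool 3.

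Gfap, the intermediate filament of astrocytes and of reactive Mueller cells, was the dimmest gene of the set. The SD hyperoxia pools had 5.0 and 4.7, against 4.9, 5.0 and 4.8 in SD room air. In F344 hyperoxia it had 4.7, 4.5 and 5.0, against 4.7 and 4.8 in room air. The groups overlapped fully, with a log2 difference of -0.05 in SD (SE 0.15, interval -0.37 to 0.27, adjusted p = 0.954) and -0.02 in F344 (SE 0.15, interval -0.34 to 0.31, adjusted p = 0.974). The 8 pools numbered 1 and 2 alone gave -0.10 and -0.15.

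Vim, the filament of progenitors, Mueller cells and young astrocytes, was the one bright member. It had 11.1 and 11.2 in SD hyperoxia, against 11.3, 11.4 and 10.9 in SD room air. The F344 hyperoxia pools had 11, 10.9 and 10.5, against 11 and 11.1 in F344 room air. Pool 3 was the lowest of its group in both, and the hyperoxia and room-air pools overlapped in SD and met at 11 in F344. The log2 difference was -0.05 in SD (SE 0.17, interval -0.42 to 0.32) and -0.25 in F344 (SE 0.17, interval -0.62 to 0.12, adjusted p = 0.921). Without both pools numbered 3 it was -0.20 in SD and -0.10 in F344.

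All 7 listed filament proteins of glia were measured, and none passed for hyperoxia in either strain (medians -0.05 in SD and -0.13 in F344). Synm, synemin, which joins vimentin filaments, had 4.6 and 4.6 in SD hyperoxia, against 4.7, 4.7 and 4.8 in SD room air, and the F344 hyperoxia pools had 4.4, 4.5 and 4.6, against 4.7 and 4.7 in F344 room air. These groups did not overlap in either strain, on a dim probe set and by -0.13 (adjusted p = 0.828) and -0.20 (adjusted p = 0.921). Among all probe sets 15.3% did not overlap in SD and 12.3% in F344. Nes, nestin, the filament of progenitors, differed by 0.18 in SD and by 0.18 in F344 (SE 0.13 each, adjusted p = 0.815 and 0.921), and by 0.10 in SD without its room-air pool 3.

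S100b, a calcium-binding protein of astrocytes and Mueller cells, had 5.1 and 4.8 in SD hyperoxia, against 5.1, 5.1 and 5.4 in SD room air. The F344 hyperoxia pools had 4.8, 4.9 and 4.8, against 4.7 and 4.6 in F344 room air. SD pools touched at 5.1, whereas in F344 every hyperoxia pool was above both room-air pools, the nearest by only the smallest step (4.8 against 4.7). The log2 difference was -0.25 in SD (SE 0.13, interval -0.53 to 0.03, adjusted p = 0.815) and 0.18 in F344 (SE 0.13, interval -0.10 to 0.46, adjusted p = 0.921). The difference between the strains' effects was -0.43 (SE 0.18, interval -0.83 to -0.04, unadjusted p = 0.034, limma adjusted p = 0.651). Leaving out both pools numbered 3 gave -0.15 in SD and 0.20 in F344.

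Of the 14 listed S100 genes 13 were measured, and none passed limma's test for hyperoxia. In SD 11 of the 13 lay below 0, with a median of -0.17, and in F344 5 did, with a median of 0.05. Without both pools numbered 3 the medians were -0.10 and 0. S100a11 differed by -0.80 in SD (SE 0.24, adjusted p = 0.815), or -0.50 without SD room air pool 3, and S100a5 by 0.53 in F344 (SE 0.13, adjusted p = 0.921).

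Kcnj10, which encodes the potassium channel Kir4.1, had 6.2 and 6.2 in SD hyperoxia, against 6.3, 6.2 and 6.4 in SD room air. The F344 hyperoxia pools had 6.2, 6.3 and 6.0, against 6.6 and 6.8 in F344 room air. As with Pdgfra, the F344 room-air pools were the highest of all 10, while the other 3 groups lay between 6.0 and 6.4. The log2 difference was -0.53 in F344 (SE 0.12, interval -0.80 to -0.27, 1.45-fold lower, unadjusted p = 0.000777, limma adjusted p = 0.921). In SD it was -0.10 (SE 0.12, interval -0.36 to 0.16, adjusted p = 0.872). The values were -0.45 in F344 and -0.05 in SD without both pools numbered 3. The effects differed between strains by 0.43 (SD minus F344, SE 0.17, interval 0.06 to 0.80), with unadjusted p = 0.0252 and limma adjusted p = 0.651. No gene set apart the strains' effects by limma's test: 0 of the 8 and 0% of all probe sets passed, and 2 of the 8, Kcnj10 and S100b, had an unadjusted p under 0.05 against 7.51% of probe sets.

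The list of 12 glial potassium channels was measured in full and none passed limma's test for hyperoxia. In F344 9 of the 12 lay below 0, with a median of -0.11, and in SD 4 did, with a median of 0.04. Kcnj8, the Kir6.1 channel known from pericytes, differed by -0.33 in F344 (SE 0.15, adjusted p = 0.921) and by -0.27 in SD (SE 0.15, adjusted p = 0.815). Kcnj16, which forms mixed channels with Kir4.1, had 4.2, 4.0 and 4.0 in F344 hyperoxia, against 4.3 and 4.2 in F344 room air, an overlapping difference of -0.18 (SE 0.11, adjusted p = 0.921). Kcnk10, a background channel also called TREK-2, differed by -0.38 in F344 (SE 0.21, adjusted p = 0.921), and by -0.25 without F344 hyperoxia pool 3. The list's F344 median was -0.05 without both pools numbered 3.

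Aqp4, the glial water channel, also overlapped throughout. It had 5.1 and 5.2 in SD hyperoxia, against 5.3, 5.1 and 5.2 in SD room air. The F344 hyperoxia pools had 5.4, 5.2 and 5.1, against 5.2 and 5.4 in F344 room air. Its log2 differences were -0.05 in SD (SE 0.12, interval -0.31 to 0.21) and -0.07 in F344 (SE 0.12, interval -0.33 to 0.20). Of the 14 listed aquaporins and members of the dystrophin complex, which anchors aquaporin-4 and Kir4.1 at glial endfeet, 9 were measured and none passed for hyperoxia (medians -0.02 in SD and -0.07 in F344). Dmd, dystrophin itself, averaged 10.25 in SD hyperoxia and 10.03 in SD room air, a log2 difference of 0.22 (SE 0.10, adjusted p = 0.815). Sntb1, a syntrophin of the same complex, differed by 0.28 in SD (SE 0.10, adjusted p = 0.815) and without overlap between the pools, as in 15.3% of all probe sets.

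Taken over both strains, 0 of the 8 genes passed the test of hyperoxia (0.0402% of probe sets did), and Pdgfra and Kcnj10 had an unadjusted p under 0.05 in limma, as did 4.08% of probe sets. Kcnj10 averaged -0.32 over the strains (SE 0.08, limma adjusted p = 0.732). All 8 average differences were below 0, as were those of 6593 of all 14324 genes, with a median of -0.07 against 0.01 over all genes. Those of Pdgfa, Gfap and S100b turned sign in at least 1 alternative fit.

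**Figure D2:**
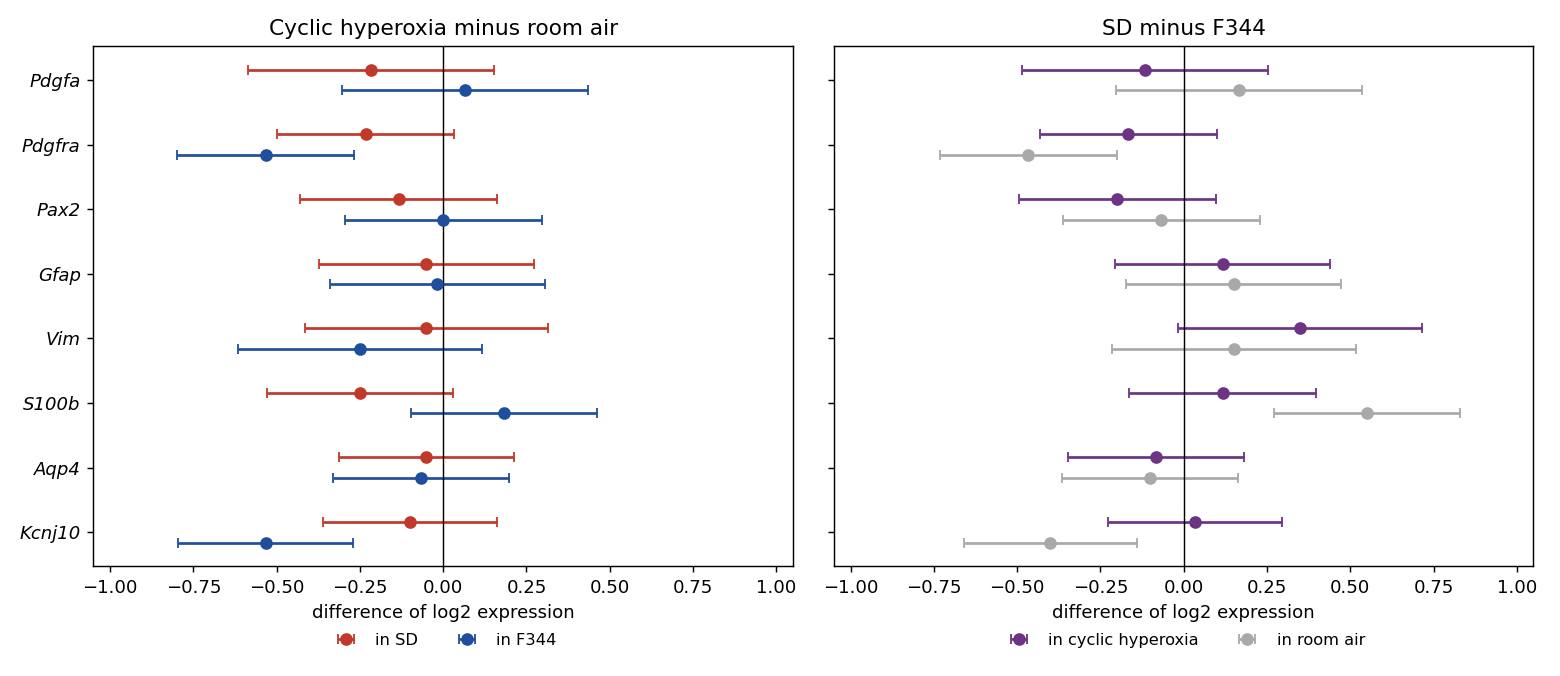
Fitted differences of log2 expression (horizontal axis) for the 8 measured genes, with 95% intervals from limma; the left panel shows cyclic hyperoxia minus room air within SD and F344, the right panel SD minus F344 within each exposure. Pdgfra and Kcnj10 in F344 lie at -0.53 with intervals below 0, and the room-air strain differences of S100b, Pdgfra and Kcnj10 have intervals clear of 0.

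In room air the widest strain differences were those of S100b, Pdgfra and Kcnj10. None of the 8 passed limma's test of SD against F344 in room air, where 0.556% of probe sets did, but 3 had an unadjusted p under 0.05 (11.4% of probe sets) and these 3 did not overlap between the strains (19.7% of probe sets). S100b had 5.1, 5.1 and 5.4 in SD room air, against 4.7 and 4.6 in F344 room air, a log2 difference of 0.55 (SE 0.13, interval 0.27 to 0.83, 1.46-fold higher, limma adjusted p = 0.102). Pdgfra averaged 6.13 ± 0.15 in SD room air (standard deviation, n = 3) and 6.6 in both F344 room-air pools, a difference of -0.47 (SE 0.12, interval -0.73 to -0.20, limma adjusted p = 0.155). Kcnj10 averaged 6.3 ± 0.1 in SD room air (n = 3) and 6.7 ± 0.14 in F344 room air (n = 2), a difference of -0.40 (SE 0.12, interval -0.66 to -0.14, limma adjusted p = 0.228). Without SD room air pool 3 these differences were 0.45 for S100b, -0.45 for Pdgfra and -0.45 for Kcnj10. The other 5 genes differed by -0.10 to 0.17. This comparison and that of hyperoxia in F344 share the 2 F344 room-air pools, so the values of Pdgfra, Kcnj10 and S100b in the 2 comparisons are not separate observations. Those 2 pools were above all other 8 pools in Pdgfra and Kcnj10, as in 1.56% of probe sets, and below all others in S100b, as in 1.66%. These shares were counted for F344 room air alone, a group already seen apart in these values, so they do not test how rare it is.

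Between the strains in hyperoxia, no member passed limma's test (0.457% of probe sets did), none had an unadjusted p under 0.05 (6.64% of probe sets), and Vim alone did not overlap (14.7% of probe sets). Vim had 11.1 and 11.2 in SD hyperoxia, against 11, 10.9 and 10.5 in F344 hyperoxia, a log2 difference of 0.35 (SE 0.17, interval -0.02 to 0.72, adjusted p = 0.771). Without F344 hyperoxia pool 3 it was 0.20. Pdgfra differed by -0.17 (interval -0.43 to 0.10), S100b by 0.12 (interval -0.16 to 0.40) and Kcnj10 by 0.03 (interval -0.23 to 0.29).

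Averaged over both exposures, S100b differed between SD and F344 by 0.33 (SE 0.09, limma adjusted p = 0.133) and Pdgfra by -0.32 (SE 0.09, limma adjusted p = 0.133). None of the 8 passed, against 1.35% of probe sets, and 2 had an unadjusted p under 0.05 (9.13% of probe sets). This was the one comparison in which alternatives ended that state: with a term for the pools numbered 3, Pdgfra (adjusted p = 0.041) and S100b (adjusted p = 0.0486) passed, where 3% of probe sets did.

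In the lists of related genes, the cell type markers aside, only Nes and Fn1 passed between the strains. Nes had 8.2 and 8.3 in SD hyperoxia, against 7.8, 7.7 and 7.7 in F344 hyperoxia, and 8.0, 8.3 and 7.9 in SD room air, against 7.6 and 7.5 in F344 room air. It was higher in SD at both exposures without overlap, by 0.52 on average (SE 0.09, limma adjusted p = 0.00998). Among all probe sets 14.7% did not overlap between the strains in hyperoxia and 19.7% in room air. On the average over both exposures Nes was the 1 of 7 filament genes to pass, against 1.35% of all probe sets. Fn1, fibronectin, the matrix protein on which astrocytes and vessel tips advance, averaged 8.47 in SD room air and 9.15 in F344 room air. It was lower in SD, with a difference of -0.68 in room air (SE 0.12, limma adjusted p = 0.0284) and -0.47 over both exposures (SE 0.09, adjusted p = 0.0173), the 1 of 14 measured matrix and guidance genes to pass. Of all probe sets 0.556% passed in room air and 1.35% over both exposures. The room-air difference of Fn1 shares the F344 room-air pools with its difference for hyperoxia in F344, so they are not separate observations. In hyperoxia Fn1 averaged 8.25 in SD and 8.5 in F344, with pools that met at 8.3 and a difference of -0.25 that did not pass (SE 0.12, adjusted p = 0.782).

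Fn1 was also the gene whose pattern was most like that of Pdgfra. For the 3 members with the widest spread over the arrays (Pdgfra, Vim and S100b), likeness was measured as Pearson's r over the 10 pools among 4507 genes (4508 for S100b) at or above the median brightness of all probe sets and with a standard deviation of at least 0.15 over the pools. The candidates were thus bright and variable genes, and all these pools share the groups, so r describes them and was not tested. Fn1 had 8.2 and 8.3 in SD hyperoxia, against 8.4, 8.5 and 8.5 in SD room air, and 8.5, 8.7 and 8.3 in F344 hyperoxia, against 9.1 and 9.2 in F344 room air. Its r with Pdgfra was 0.959 (Spearman's rho 0.953), and 0.837 (rho 0.911) over the 8 pools without F344 room air, the farthest from Pdgfra's median. Next came Rgma, a membrane-bound guidance protein (r = 0.867, rho 0.891; 0.794 without the same 2 pools), and Smoc1, a secreted matrix protein (r = 0.852, rho 0.814; 0.643 without them). In F344 Fn1 differed by -0.65 in hyperoxia (SE 0.12, adjusted p = 0.715), and in SD by -0.22 (SE 0.12, adjusted p = 0.815). Pdgfra and Kcnj10 had r = 0.845 (rho 0.725) over 10 pools but 0.406 (rho 0.441) over the 8 without F344 room air, so their likeness rested on those 2 pools.

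**Figure D3:**
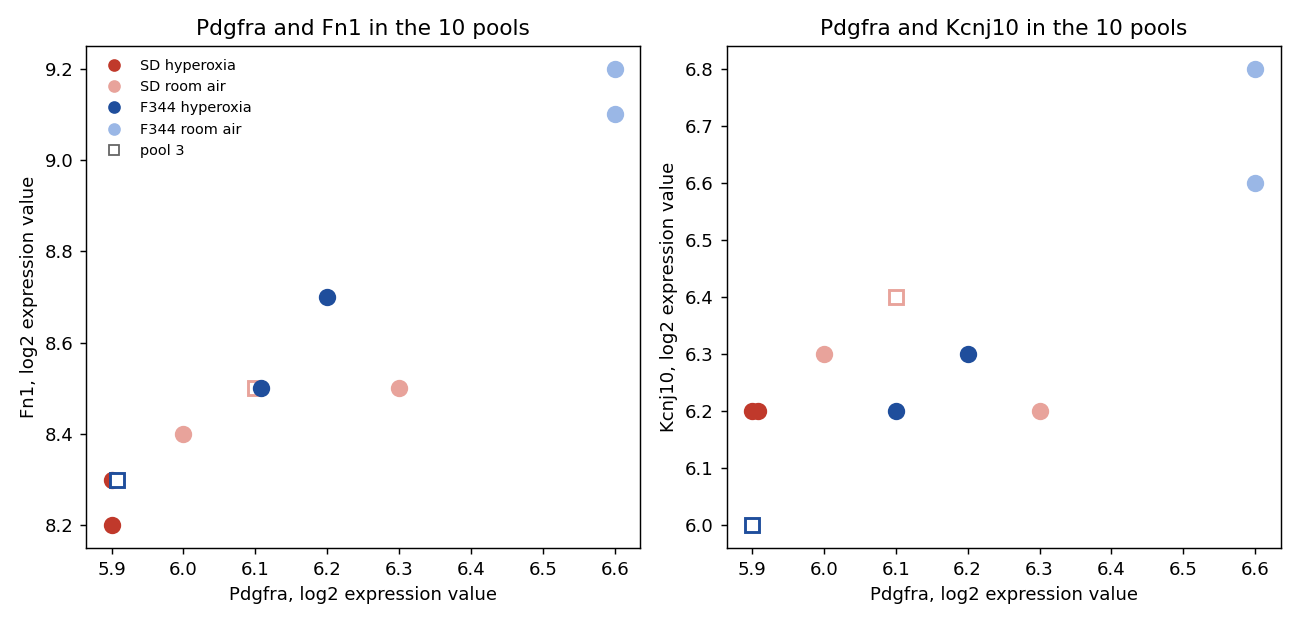
Log2 expression of Pdgfra (horizontal axes) against Fn1 (left) and Kcnj10 (right) in the 10 pools, coloured by strain and exposure, with pool 3 as open squares and coinciding points set slightly apart. The F344 room-air pools lie at the top right of both panels, and among the other 8 pools Fn1 is higher where Pdgfra is higher (r = 0.837) and Kcnj10 less so (r = 0.406).

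Vim was most like Ccdc187 (r = 0.976, rho 0.941), Pkdcc, a secreted kinase (r = 0.969, rho 0.928), and Abhd4, a lipid hydrolase (r = 0.961, rho 0.962). The pools farthest from Vim's median were the third of F344 hyperoxia and the second of SD room air, and the other 8 gave r of 0.9, 0.879 and 0.857. Abhd4 had 8.0 in F344 hyperoxia pool 3, against 8.5 and 8.4 in the other 2 pools of that group, the same low pool as Vim. S100b was most like Hsd17b8, a steroid and fatty acid dehydrogenase (r = 0.925, rho 0.949), the chemokine Ccl27 (r = 0.922, rho 0.922) and the lysosomal nuclease Dnase2 (r = 0.916, rho 0.939). Without the 2 pools farthest from the median of S100b the r values were 0.905, 0.844 and 0.96.

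Markers of vessel cells and fibroblasts had these values beside those of Pdgfra and the other members. Mean levels of the 15 measured endothelial markers were 4.94 to 5.01 in SD hyperoxia, against 5.13 to 5.55 in SD room air, and 4.96 to 5.12 in F344 hyperoxia, against 5.15 to 5.35 in F344 room air. Medians of their log2 differences were -0.33 in SD and -0.27 in F344, with 13 of 15 below 0 in each, though none passed limma's test. Pericyte markers averaged 5.21 to 5.29 in SD hyperoxia, against 5.39 to 5.7 in SD room air, and 5.29 to 5.35 in F344 hyperoxia, against 5.5 to 5.51 in F344 room air, with medians of -0.26 and -0.25 over 10 genes. Without both pools numbered 3 the endothelial medians were -0.25 in each strain, and the pericyte medians -0.20 in SD and -0.25 in F344. Fibroblast and meningeal markers, a list that includes Pdgfra itself, had medians of -0.25 in SD and -0.03 in F344 over 11 genes; without Pdgfra their mean was 5.66 to 5.99 in SD hyperoxia, against 5.79 to 6.6 in SD room air, and 5.78 to 5.92 in F344 hyperoxia, against 5.81 to 5.85 in F344 room air. The 6.6 was that of SD room air pool 3, and without both pools numbered 3 the list's median was -0.05 in each strain. In F344 5 of the 11 lay above 0 and 6 below. The 4 with the smallest p there were Fbln2, a matrix fibulin (-0.60, SE 0.12, adjusted p = 0.715), Pdgfra itself, Igf2, a growth factor (-0.37, SE 0.14, adjusted p = 0.921), and Dcn, the matrix proteoglycan decorin, with the other sign (1.00, SE 0.43, adjusted p = 0.921). The part of these cells in the values of Pdgfra was not tested.

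None of the other astrocyte genes passed for hyperoxia. Of 33 listed 29 were measured, of which 19 lay below 0 and 9 above in SD (median -0.12), and 18 below and 10 above in F344 (median -0.03). The medians were -0.05 and -0.10 without both pools numbered 3. An unadjusted p under 0.05 was found for 4 genes in SD (5.95% of all probe sets) and 1 in F344 (4.83% of all probe sets), all below 0. In SD the smallest p belonged to Sparc, a matrix-binding glycoprotein (-0.42, SE 0.12), Slco1c1, a thyroid hormone transporter of brain vessels and glia (-0.52, SE 0.16), Aldoc, the glycolytic enzyme aldolase C (-0.47, SE 0.15), and Timp1, an inhibitor of matrix proteases (-0.37, SE 0.15), each with adjusted p = 0.815. In F344 Gja1, the astrocyte gap junction protein connexin 43, had 7.0, 7.4 and 7.1 in hyperoxia, against 6.7 and 6.6 in room air, a log2 difference of 0.52 (SE 0.27, adjusted p = 0.921), the opposite sign to Pdgfra. The SD pools of Gja1 had 7.4 and 6.8 in hyperoxia, against 6.3, 7.4 and 7.1 in room air, and overlapped widely. Acsbg1, a fatty acid ligase of glia, differed by -0.35 in F344 (SE 0.13, adjusted p = 0.921).

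Genes listed for the matrix and guidance of vessels, 14 measured of 23 listed, had medians of -0.12 in SD and -0.17 in F344, with 9 and 13 of the 14 below 0, and none passed for hyperoxia. Which cells of the whole retina held these RNAs was not tested. Vegfa, the endothelial growth factor that astrocytes release when oxygen is low, averaged 8.75 in SD hyperoxia and 9.93 in SD room air, a difference of -1.18 (SE 0.18, limma adjusted p = 0.0526), and 9.5 in F344 hyperoxia and 9.7 in F344 room air, a difference of -0.20 (SE 0.18, adjusted p = 0.921). Col4a1, a basement membrane collagen, differed by -0.42 in F344 (SE 0.14, adjusted p = 0.921) and Lamc1, a laminin chain, by -0.28 (SE 0.15, adjusted p = 0.921). Without F344 hyperoxia pool 3 Lamc1 differed by -0.15, and the list's F344 median without both pools numbered 3 was -0.075.

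**Figure D4:**
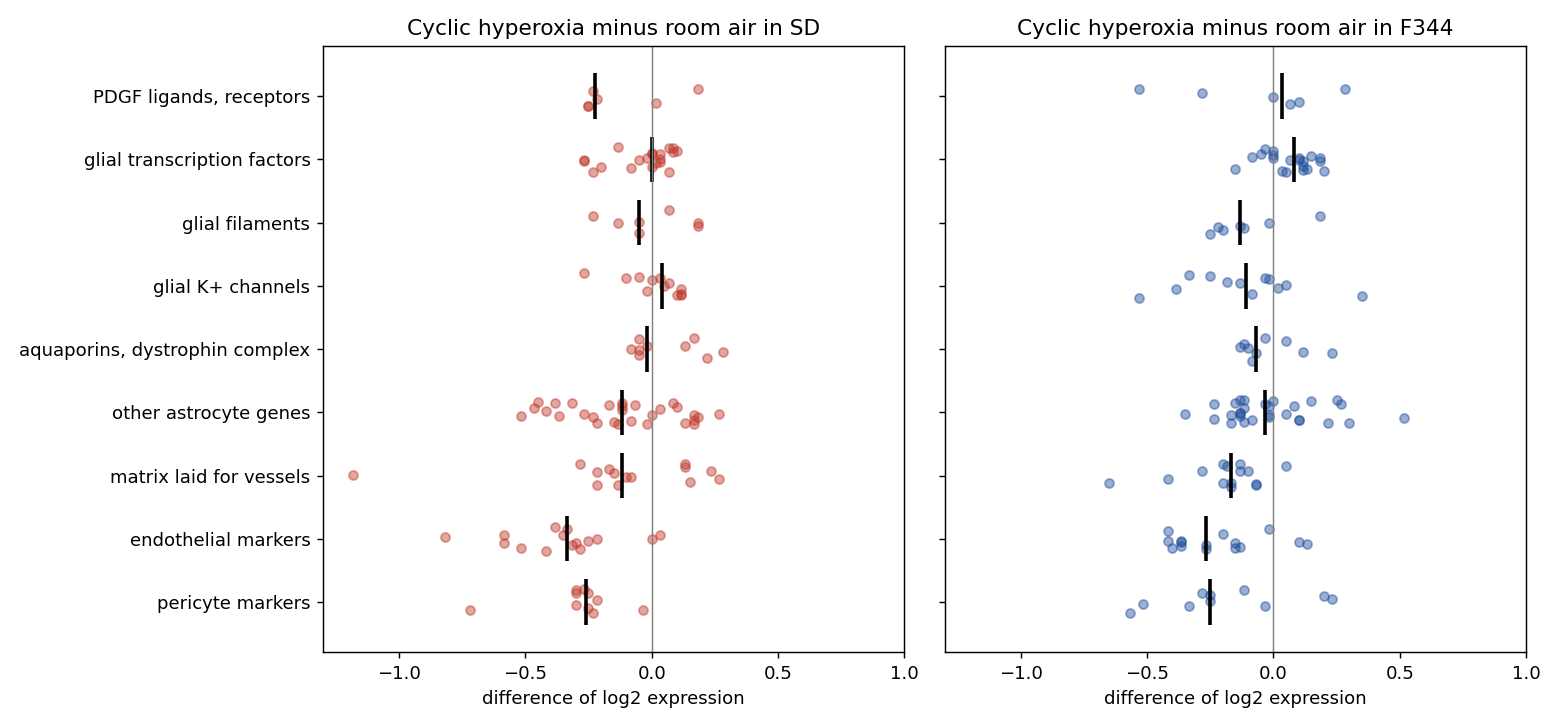
Log2 difference of cyclic hyperoxia minus room air (horizontal axis) for every measured gene of 9 lists, in SD (left) and F344 (right), 1 dot per gene with vertical jitter and a black tick at the list's median. The glial and matrix lists have medians between -0.17 and 0.08, and the PDGF list -0.23 in SD and 0.03 in F344. The endothelial and pericyte lists have medians of -0.25 to -0.33. Some genes are in more than 1 list, such as Pdgfrb in the PDGF and pericyte lists.

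For the gene without a probe set, Aldh1l1, the related enzymes were read instead: 11 of 14 listed folate enzymes and aldehyde dehydrogenases were measured and none passed for hyperoxia (medians 0.15 in SD and 0.02 in F344, and 0.05 in each without both pools numbered 3). Aldh1a1, a retinoic acid enzyme of the dorsal retina in mice, differed by 0.28 in SD (SE 0.15, adjusted p = 0.815). Aldh1l2, the mitochondrial relative of Aldh1l1, differed by 0.17 in SD and 0.10 in F344 (SE 0.18 each, adjusted p = 0.859 and 0.96). Without both pools numbered 3 it was -0.05 in SD, with the sign turned, and 0.20 in F344.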

How the data were processed

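The deposited table holds log2 expression values per probe set of Affymetrix whole-transcript rat gene arrays, rounded to 1 decimal. Per the submitters' processing notes, which list names without roles, RMA and Partek 6.4 belong to the processing. The build, annotation, background correction and scaling were not given in the sources used here.

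All 27342 probe sets of the 10 arrays entered 1 fit in limma 3.58.1 (R 4.3.3), with a mean per group, 6 residual degrees of freedom, eBayes, two-sided tests and Benjamini-Hochberg adjustment over all probe sets, with a threshold of 0.05. Values were used as deposited, with no filter. A gene is its brightest probe set with a single symbol in the platform annotation: 15097 probe sets had 1 symbol, 323 several and 11922 none there, and 15067 of the first had a current record in a RefSeq table of GRCr8. No 2 arrays were duplicates (r 0.984 to 0.996). The fit was tested on simulated data with planted changes larger than any member difference here, so that test says nothing about changes as small as those of the members.

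The members and lists were chosen with earlier results of these data known. Named genes were drawn from the members, and from list genes past the threshold or, with none, up to 4 with the smallest p. The 3 genes most like each of the 3 most variable members, Vegfa and Igfbp2 were also named. Not every list gene past the threshold is named: 1 of 12 microglia and macrophage markers also passed, higher in SD than in F344 in room air, where 0.556% of all probe sets passed. Motifs were counted on both strands of RefSeq promoters. Alternatives were pairing and array terms, left-out pools, other scalings, filters, weights and probe set rules.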

Additional observations from a re-analysis of the deposited data

How the results depend on the processing

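Across 24 alternative fits, the count of members past the threshold was 0 in 141 of 144 cases. The other 3 all concern SD minus F344 averaged over both exposures: 1 gene with the replicate block (Pdgfra, adjusted p = 0.0456), 2 with a term for the pools numbered 3 (Pdgfra 0.041, S100b 0.0486) and 1 with array weights (Pdgfra 0.0251, at -0.34). Leaving out 1 pool at a time gave 0 members throughout, with adjusted p of 0.064 to 0.428 for Pdgfra in that comparison. Of the 56 member differences, 32 kept their sign in every alternative. The other 24, none of them in Pdgfra, turned or reached 0 in at least 1, among them Pax2 in F344, at 0 in the main fit. Pdgfra in F344 ranged from -0.60 to -0.45 and Kcnj10 from -0.63 to -0.43. The replicate numbers were not taken to pair the pools: of 13 same-numbered pairs, with r of -0.07 to 0.64, 4 exceeded 0.1. These were all 3 of F344 hyperoxia with SD room air (0.314, 0.397 and 0.643), the groups that hold a pool 3, which no comparison sets against each other directly, and 1 of F344 hyperoxia with F344 room air (0.108). Dim probe sets limit Gfap, S100b, Aqp4, Pax2 and Pdgfa, which a filter on brightness removed. The count of all probe sets past the threshold moved more: 12 in SD hyperoxia (0 to 29 over the alternatives), 1 in F344 hyperoxia (0 to 4), 11 averaged over strains (1 to 44), 152 for SD minus F344 in room air (19 to 378), 125 in hyperoxia (21 to 280) and 369 over both exposures (164 to 819). The low ends came from fits with fewer arrays, and for F344 hyperoxia also from the brighter probe sets alone.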

Other observations

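Photoreceptor genes, which no result above turns on, had these values. All 13 measured markers lay above 0 for hyperoxia in F344, with a median of 0.32, against 3 of 13 above 0 in SD, with a median of -0.03, and none passed limma's test in either strain. Their mean was 8.69 to 8.7 in SD hyperoxia, against 8.49 to 9.1 in SD room air, and 8.54 to 8.97 in F344 hyperoxia, against 8.29 to 8.32 in F344 room air. With both pools numbered 3 left out the medians were 0.25 in F344 and 0.05 in SD, and the median difference between the strains' effects (SD minus F344) was -0.15, against -0.40 with all pools. No marker passed limma's test of that difference. Between the strains in room air, all 13 markers were also higher in SD (median 0.37, or 0.25 without both pools numbered 3). That comparison and hyperoxia in F344 share the F344 room-air pools, so their values are not separate observations.

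Cldn11, a tight junction protein of myelin and one of 10 measured oligodendrocyte and optic nerve markers, passed between the strains at both exposures. It was higher in SD by 1.22 in hyperoxia (SE 0.12, limma adjusted p = 0.000287) and by 0.85 in room air (SE 0.12, adjusted p = 0.00489), while the other 9 markers did not pass. Among all probe sets 0.457% passed in hyperoxia and 0.556% in room air. The short-wave cone opsin Opn1sw was higher in SD as well, by 0.71 over both exposures (limma adjusted p = 0.000354). It was the 1 of 13 measured photoreceptor markers to pass on that average, against 1.35% of all probe sets.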
